A study of Mus musculus with 2 samples.

Results

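The nuclei described here are the Foxp2 Syt6 layer 6 glutamatergic nuclei of the entorhinal cortex, 361 of 12918 nuclei in 2 single-nucleus RNA-seq libraries. They were chosen by their own RNA. A nucleus was first gated as glutamatergic when it had at least 6000 UMIs (unique molecular identifiers, 1 per captured RNA molecule), at least 2 UMIs of Slc17a7 and at most 3 UMIs of Gad1 and Gad2 together, which left 1741 vehicle and 2103 OLE nuclei. Foxp2, Syt6, Col5a1, Garnl3 and Htr1f were then z-scored over the gated nuclei, and a nucleus became a member when the mean of its 5 z-scores, called the marker score here, was at least 1.0. Both libraries came from male APP/PS1 mice of 18 months of age, which carry transgenes that lead to amyloid deposition, driven in this line by the mouse prion protein promoter. The OLE mice had received C18:1-Leu, the N-acyl amino acid of oleic acid and leucine, at 25 mg/kg/day in alkaline drinking water from month 15 to month 18, and the vehicle mice had received DMSO in the same way. Each library pooled the entorhinal cortex of 5 mice, so each condition was 1 sample, animals could not be told apart, and no test between conditions was possible. No mice without the transgenes were among the libraries.

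Layer 6 is the deepest layer of the cortex. Its corticothalamic neurons send axons to the thalamus, use glutamate, and in the neocortex are known by the transcription factors Foxp2, Tbr1, Fezf2 and Tle4 and the calcium-binding synaptotagmin Syt6. In the entorhinal cortex, which relays between the neocortex and the hippocampus, the deep layers also hold neurons that carry hippocampal output onward. Layer 6b, the remnant of the subplate below, is a separate population that is marked by genes such as Ctgf, Cplx3 and Nxph4.

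In the vehicle library 166 of 1741 gated nuclei were members, a share of 9.53% (8.20% to 11.0%, exact Clopper-Pearson interval at 95%), and in the OLE library 195 of 2103 were, a share of 9.27% (8.07% to 10.6%). The difference of -0.262 percentage points had an interval of -2.17 to 1.62 points, which covers counting error only. Member nuclei held 3794685 UMIs in the vehicle library and 3467056 in the OLE library, with a median of 22010 and 16497 UMIs per nucleus. The OLE members therefore held fewer UMIs per nucleus, as did the other gated nuclei (medians of 22171 and 18123 UMIs). Over all nuclei of each library the order was the reverse, with medians of 3989 and 6392 UMIs. Mitochondrial UMIs were low in both, with medians of 0.205% and 0.232%. The libraries shared 14 nucleus barcodes, none of them among members.

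**Figure D1:**
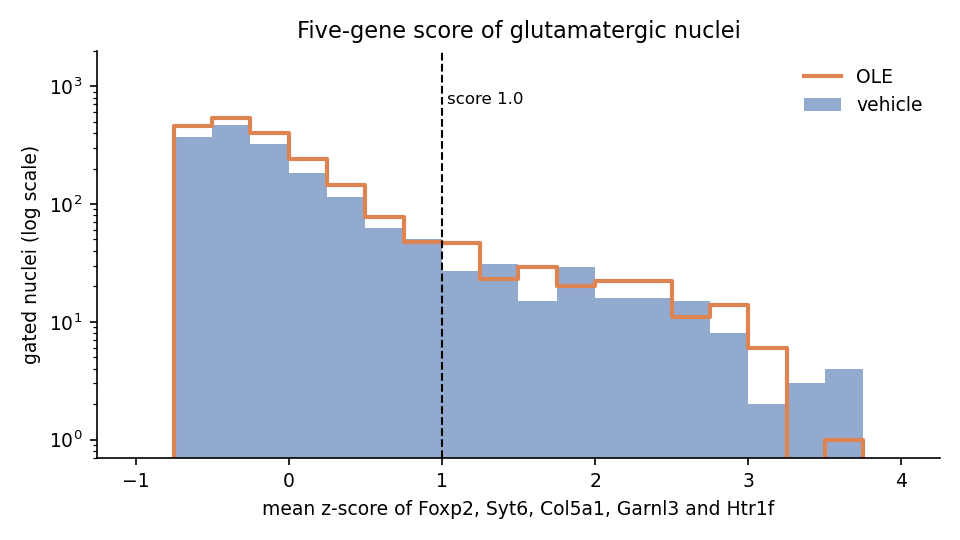
Number of gated nuclei (log scale) by marker score in bins of 0.25, for the vehicle library (filled) and the OLE library (line), with the score of 1.0 dashed. No gap separated members from the rest: 50 vehicle and 48 OLE nuclei lay from 0.75 to 1.0, and 27 and 47 members in the bin that starts at 1.0.

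The scores of the members had a median of 1.83 in the vehicle library and 1.70 in the OLE library and reached 3.72 and 3.66. The plot of scores shows a continuous tail, so the cutoff marks a range of nuclei. The member closest to it, an OLE nucleus with a score of 1.002, had 1 Foxp2, 0 Syt6, 4 Col5a1, 20 Garnl3 and 8 Htr1f UMIs. The nearest nucleus outside, a vehicle nucleus with 0.9998, had 0 Foxp2, 0 Syt6, 2 Col5a1, 6 Garnl3 and 7 Htr1f UMIs.

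The 5 genes of the rule are given as a description, since they chose the nuclei. Foxp2 (ENSMUSG00000029563, chromosome 6, 14901349 to 15441977, GRCm38) encodes a forkhead transcription factor. It had 796 CPM (UMIs per 1000000 UMIs of the nuclei summed) in vehicle members and 657 in OLE members, against 34.6 and 38.7 in the other gated nuclei. In barcodes rich in myelin RNA and without a neuronal marker UMI, which served as a gauge of free RNA, Foxp2 had 34.3 and 18.8 CPM, about the level of the other gated nuclei in the vehicle library and below it in the OLE library. Syt6 (ENSMUSG00000027849, chromosome 3, 103575231 to 103645569) was the most selective gene, with 357 and 270 UMIs in members, or 94.1 and 77.9 CPM, and 40 and 47 UMIs in all other gated nuclei. It was also sparse, as 56 of 166 vehicle members and 86 of 195 OLE members had no Syt6 UMI. Among myelin-rich barcodes, 2 of 398 and 2 of 386 had one, at median depths of 3535 and 3072 UMIs.

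Col5a1 (chromosome 2, 27886425 to 28039514), a chain of the fibrillar type V collagen, had 113 CPM in vehicle members and 155 in OLE members. Garnl3 (chromosome 2, 32986224 to 33131654), which carries a Rap GTPase-activating domain, had 1353 and 1334, and Htr1f (chromosome 16, 64924729 to 65105854), an inhibitory serotonin receptor, had 647 and 666. Those 3 genes were present outside the set as well, at 9.94 and 11.8 for Col5a1, 309 and 273 for Garnl3, and 129 and 123 for Htr1f. All 5 markers were detected in 95 vehicle and 96 OLE members, and only 3 of them in 4 and 17 members. Among the relatives of these genes, which the rule did not use, none of the other 14 synaptotagmins measured was at least 1 log2 unit higher in members in both libraries, and of the other 4 serotonin receptors Htr2a, Htr2c and Htr7 were lower by that much. Foxp1, the relative of Foxp2 in deep and middle layers, differed from the other nuclei by 0.62 log2 units in the vehicle library and 0.75 in the OLE library.

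Genes outside the rule were then compared between members and the other 3483 gated nuclei, within each library. A gene needed 200 UMIs over gated nuclei in each library, and it was called when its log2 ratio was at least 1 (or at most -1) in both. Of 10681 genes, 148 (1.39%) were higher and 612 (5.73%) lower by this rule. The nuclei had been sorted on correlated genes, so these ratios describe the set and were not tested. Of 13 corticothalamic genes outside the rule, 8 were higher and 0 lower, with median log2 ratios of 1.29 in the vehicle library and 1.12 in the OLE library. Nfia (ENSMUSG00000028565, chromosome 4, 97772734 to 98118874), a nuclear factor I transcription factor, had the largest ratios of the list, at 2.77 and 2.57. Its level was also high in the myelin-rich barcodes, at 777 and 711 CPM, against 781 and 739 in members.

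Hs3st4, a heparan sulfate sulfotransferase of corticothalamic cells, had log2 ratios of 2.37 and 2.38, with 3550 and 3366 CPM in members. Tle4, a co-repressor, had 2.11 and 2.02, Zfpm2, a cofactor of GATA factors, 2.19 and 1.95, and the sulfatase Sulf1 1.97 and 2.02. Against all other gated nuclei, Hs3st4, Tle4 and Sulf1 were about as selective in the OLE library as in the vehicle library. They did not single out the members from nuclei outside the set that scored at least 1.0 on Cobll1 and Thsd7b, described below. There Hs3st4 had 3384 and 3069 CPM, Tle4 476 and 446, and Sulf1 176 and 210 (107 and 122 in members). Zfpm2 (1282 and 973) and Nfia (453 and 419) were lower there than in members. Zfpm2 was less so, with intervals of 2.149 to 2.231 in the vehicle library and 1.907 to 1.995 in the OLE library. The transcription factors Fezf2 (1.29 and 1.34) and Tbr1 (1.43 and 1.12) and the potassium channel Kcnk2 (1.27 and 1.01) made up the rest of the 8. Rprm, a p53 target that marks subicular and layer 6 cells, had 77 and 84 UMIs in members and fell short of the UMI minimum over gated nuclei. Ntsr1, the neurotensin receptor that labels neocortical corticothalamic cells in a widely used Cre line, had 19 and 40 UMIs in members, with log2 ratios of -0.50 (-1.26 to 0.17) and 0.55 (0.04 to 1.03), so the libraries leaned in opposite directions.

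**Figure D2:**
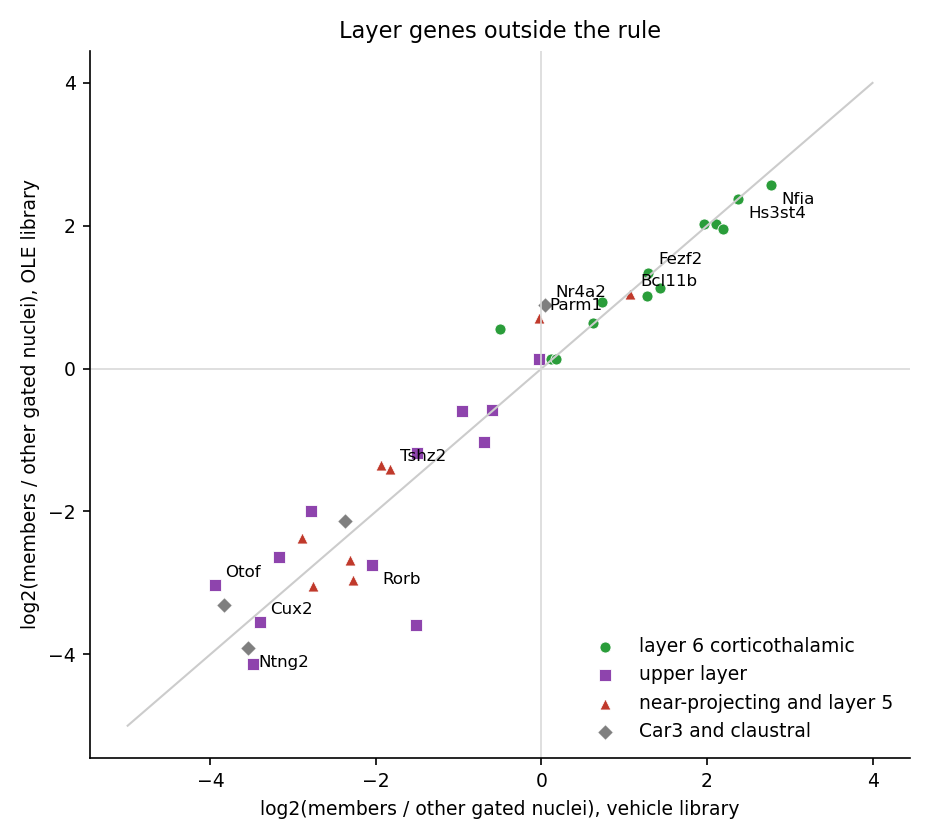
Log2 ratio of CPM in members to that in the other gated nuclei, vehicle library (horizontal) against OLE library (vertical), 1 point per gene with at least 200 UMIs in each library, coloured by list; the grey diagonal marks equal ratios. Corticothalamic genes such as Nfia and Hs3st4 sit at the upper right, upper-layer genes such as Cux2 at the lower left, and Nr4a2 and Parm1 lie above the diagonal.

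Genes of other layers were lower. Of 12 upper-layer and intratelencephalic genes, 8 were lower in both libraries and 0 higher. Cux2, a homeobox gene of layers above, had 15.3 and 13.8 CPM in members and log2 ratios of -3.40 and -3.55, and Smoc2, Otof and Calb1 were also among the 8. Of 8 near-projecting and layer 5 genes, 6 were lower, among them Trhr (-2.90 and -2.38), Vat1l (-2.27 and -2.96) and Tshz2 (-1.83 and -1.41). Bcl11b, a zinc finger factor of subcerebral and corticothalamic cells, was higher, at 1.06 and 1.04, and Parm1 was not called, at -0.03 and 0.70. Of 4 Car3 and claustral genes, Synpr, Gnb4 and Ntng2 were lower and Nr4a2 was not.

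Layer 6b genes were scarce in vehicle members and less so in OLE members. In vehicle members Ctgf had 9 UMIs, Svil 14, Cplx3 0 and Nxph4 1. In OLE members the same genes had 38, 56, 11 and 2 UMIs. The count of 0 for Cplx3 allows up to 3 UMIs in that library. The summed level of the 7 genes of the list was 10.0 CPM in vehicle members and 39.8 in OLE members, against 37.2 and 54.0 in the other gated nuclei.

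Beyond the lists, the genes with the highest ratio in the weaker library were led by Syt6, Foxp2, Ighm and Col5a1. Ighm, the immunoglobulin mu heavy chain, had 116 and 107 UMIs in members and a log2 ratio of 3.62 in each library. Arhgap25, a Rac GTPase-activating protein, had 3.44 and 3.45, and Ror2, a Wnt5a receptor, had 49.8 and 54.2 CPM in members. The set also included Ddo, which oxidises D-aspartate (2.49 and 2.52), Ptk7, a planar polarity receptor (2.45 and 2.26), Glra2, a glycine receptor subunit (2.23 and 2.31), and Sema3e, a semaphorin that guides axons (2.13 and 2.24). Cdh18, a cadherin, reached 2614 and 2571 CPM in members with ratios of 2.15 and 2.16. The complement gene C7 had 2.56 and 2.06, and the class I gene H2-T23 had 2.21 and 2.63. Mypn, Rai14 and Shb completed the genes outside the rule and the corticothalamic list.

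At the other end, Prlr, the prolactin receptor, had 1 and 0 UMIs in members and Rph3al 0 and 1. Pde11a, a phosphodiesterase, had 8 and 4 UMIs and log2 ratios of -4.04 and -5.09. The integrin Itga4 (-3.79 and -4.00), Ankfn1 (-3.79 and -4.03) and the corticotropin-releasing hormone receptor Crhr1 (-3.72 and -3.71) followed. Gm12371, 9330185C12Rik and Gm29069 had between 2 and 4 UMIs in each library. Reln, a secreted protein of superficial entorhinal cells, was lower as well (-2.43 and -2.90), and of the 7 entorhinal genes Lef1 and Htr2c were lower too while Thsd7b was higher (1.75 and 2.01).

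Some receptor and channel genes differed between the members and the other gated nuclei, beside 1.39% of all genes higher and 5.73% lower. Of 22 glutamate receptor subunits, the kainate subunit Grik3 (1.80 and 1.96) and the metabotropic receptors Grm3 (1.01 and 1.17) and Grm8 (1.07 and 1.10) were higher, and Grik1 (-1.86 and -2.69) and Grm2 (-1.87 and -1.75) were lower. The AMPA subunits Gria3 (0.86 and 0.77) and Gria4 (-0.79 and -0.76) leaned in opposite directions without reaching the cutoff. Of 30 potassium channel subunits, 1 was higher and 6 were lower, beside the same shares of all genes. Kcnip4, an accessory subunit of A-type channels, had 2591 and 2145 CPM in members and log2 ratios of -2.16 and -2.39. Kcnb2 (-2.81 and -2.89), Kcnh5 (-2.65 and -2.74) and the M-current subunit Kcnq5 (-1.33 and -1.30) were also lower. The mu opioid receptor Oprm1 stood at 1.00 and 1.18, with 1 library just under the cutoff, and the muscarinic receptor Chrm2 at -2.58 and -2.18.

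The members were not uniform. Divided by marker score, 58 vehicle and 70 OLE nuclei scored from 1.0 to 1.5, 44 and 49 from 1.5 to 2.0, and 64 and 76 at 2.0 or more. Hs3st4 varied little over these bands, from 3279 to 3887 CPM in the vehicle library and from 3073 to 3638 in the OLE library. Nfia increased from 559 to 974 CPM in the vehicle library and from 597 to 858 in the OLE library. Sulf1 went the other way, from 140 to 86.7 and from 179 to 89.9.

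Some genes outside the rule were concentrated in the lowest band. Cobll1, from the entorhinal list, had 124 and 252 CPM there and 27.6 and 13.2 in the highest band. Nr4a2, a nuclear receptor of claustral and deep-layer cells, had 67.5 and 170 in the lowest band and 19.0 and 13.2 in the highest. Rorb, a nuclear receptor of layer 4, had 71.5 and 54.9 in the lowest band and 12.5 and 6.27 in the highest. For Cobll1 and Nr4a2 the lowest band was also above the other gated nuclei (41.2 and 33.0 for Cobll1, 34.8 and 39.8 for Nr4a2), and for Rorb it was below them (179 and 172).

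**Figure D3:**
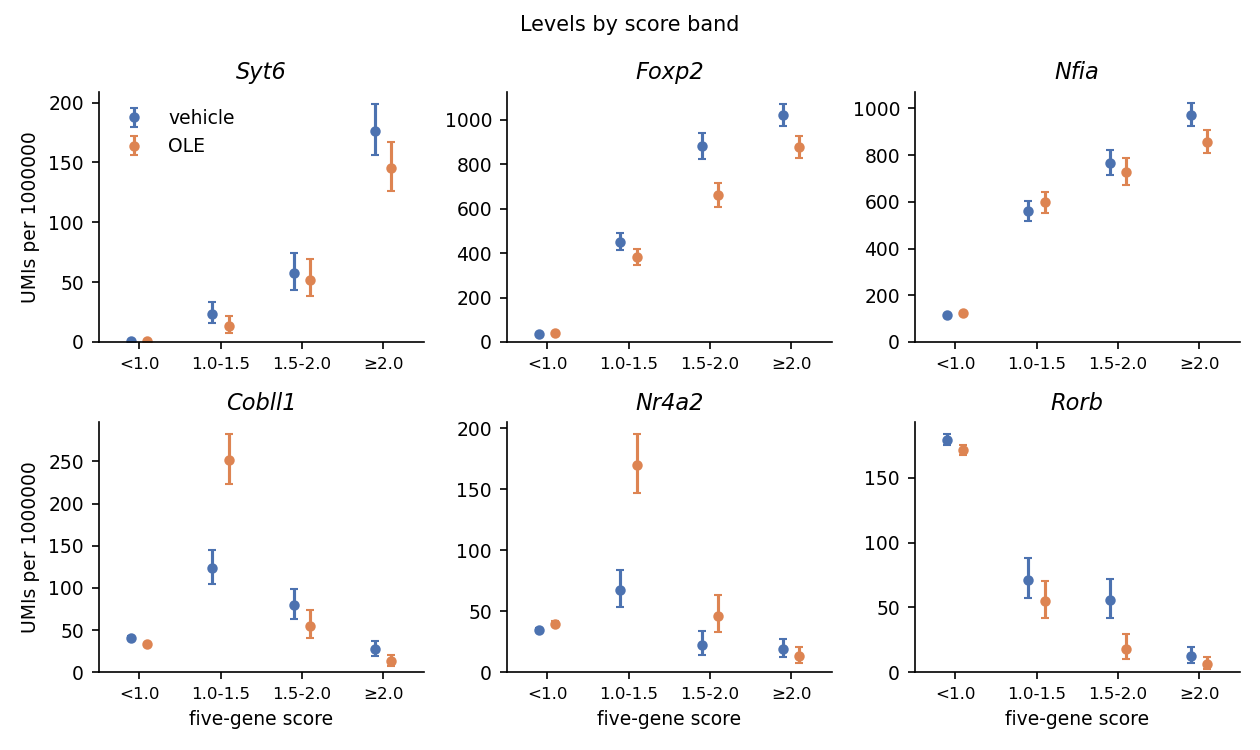
CPM of 6 genes (vertical axes from 0) by marker score band (horizontal) in the vehicle and OLE libraries, with exact 95% Poisson intervals for counting error. Syt6 and Foxp2 increase with the score among members because they are terms of it. Nfia, which is not, also increases, while Cobll1 and Nr4a2 peak in the band from 1.0 to 1.5, where the OLE level is above the vehicle level.

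A second score on Cobll1 and Thsd7b at the same cutoff of 1.0 marked 197 vehicle and 205 OLE gated nuclei. It included 32 of the 166 vehicle members, or 19.3% (13.6% to 26.1%), and 57 of the 195 OLE members, or 29.2% (23.0% to 36.2%). These were 16.2% and 27.8% of the Cobll1 Thsd7b nuclei. No member fell among the 181 vehicle and 231 OLE nuclei with the same score for Otof and Smoc2. The overlapping members differed from the other members in genes outside both scores. Lpar1, a lysophosphatidic acid receptor, had 95.4 and 121 CPM in the overlap and 2.81 and 10.5 in the other members. Kcnk2 had 73.3 and 82.2 in the overlap and 194 and 196 outside it. In the Cobll1 Thsd7b nuclei that were not members, Lpar1 (86.7 and 74.5) and Kcnk2 (70.4 and 78.7) were nearer to the overlap than to the other members. Kcnip4 was not alike, with 998 and 612 in the overlap and 4290 and 5857 in those nuclei. Of the overlap, 24 vehicle and 40 OLE nuclei lay in the marker score band from 1.0 to 1.5.

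Markers of other cells were also counted in members, and their part in the results was not tested. Of 9 GABAergic markers only Lhx6 was at 0 in members of both libraries, and the list summed to 122 CPM in vehicle members and 180 in OLE members, with 177 and 243 in the other gated nuclei. The 7 astrocyte markers summed to 794 and 1023 in members and to 714 and 846 outside, with a median of 15 and 14 UMIs per member and a maximum of 479 in 1 OLE nucleus. Most of that sum was Slc1a2, at 686 and 806 CPM (360 and 413 outside), while Gpc5 (46.6 and 47.9 CPM, 269 and 262 outside) and Slc1a3 (11.1 and 6.63, 25.4 and 36.4 outside) were lower in members. The 8 oligodendrocyte markers summed to 200 and 176 (214 and 274 outside), the 6 OPC markers to 12.9 and 18.5 (21.9 and 27.6), the 9 microglia markers to 61.4 and 85.1 (62.7 and 85.3), and the 9 vascular markers to 13.4 and 17.0 (32.8 and 46.1). Among 8 hippocampal pyramidal and granule genes, which summed to 179 and 196 (160 and 182 outside), Dsp was at 0 in both libraries and Fibcd1 in the OLE library. The top 5% of doublet scores of each library held 6.02% of vehicle members and 4.10% of OLE members.

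The OLE and vehicle members were compared gene by gene as the log2 ratio of CPM, with an exact binomial interval for counting error. Of the 7377 genes that reached 100 UMIs when the members of the 2 libraries were added, 575 (7.79%) had a log2 ratio of at least 0.5 and 74 (1.00%) a ratio of at most -0.5. Those genes are called higher and lower below, which says how far the 2 libraries differed and is no test of the treatment. The median over all genes was 0.07. When ratios were centred on it, 403 genes were higher and 130 lower, so that the higher share of the calls went from 88.6% to 75.6%. In the other gated nuclei, which held more UMIs, 260 of the same genes (3.52%) were higher and 3 (0.0407%) lower.

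The ratio varied with gene length. Its median was 0.31 for 670 genes under 10 kb, 0.16 from 10 to 30 kb, 0.05 from 30 to 100 kb, -0.01 from 100 to 300 kb and -0.08 for 484 genes of 300 kb or more. The other gated nuclei had 0.28 in the shortest class and -0.06 in the longest. Among the 1703 genes shorter than 20 kb, 322 (18.9%) were higher in OLE members. The lists below differ in gene length, and the part of length, depth and library in the results was not tested.

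Genes for protein folding in the endoplasmic reticulum (ER) were higher in part. These chaperones, disulfide isomerases and their regulators are induced together when unfolded proteins accumulate. Of 19 measured genes, 8 were higher in OLE members and 0 lower, with a median log2 ratio of 0.34, against 7.79% of all genes and a median of 0.07. In the other gated nuclei 7 of the 19 were higher, with a median of 0.43. Of the 10 genes shorter than 20 kb, 5 were higher.

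Calr (ENSMUSG00000003814, chromosome 8, 84841850 to 84846934), the lectin chaperone calreticulin, had 194 UMIs in vehicle members and 369 in OLE members, or 51.1 and 106 CPM, a log2 ratio of 1.06 (0.80 to 1.32). It was detected in 105 of 166 and 154 of 195 nuclei, and without the highest nucleus of each library the ratio was 1.05. Hspa5, the ER Hsp70 chaperone BiP, had 189 and 282 UMIs and a ratio of 0.71 (0.44 to 0.98). Hsp90b1, the ER Hsp90, had 270 and 408 (0.73, 0.50 to 0.95), and calnexin, Canx, 328 and 449 (0.58, 0.37 to 0.79). The isomerases Pdia3 (0.74) and Pdia6 (0.78), the co-chaperone Dnajc3 (0.53) and the transcription factor Xbp1 (0.56) made up the 8. The oxidase Ero1l (-0.15), the translocon subunit Sec61a1 (0.10) and the transcription factor Atf4 (-0.03) were among the 11 that were not called. The difference from the other gated nuclei was 0.24 for Calr (-0.03 to 0.51) and -0.10 for Hspa5 (-0.39 to 0.19), so the counts did not separate members from other glutamatergic nuclei for either gene.

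The ER stress element, CCAAT and CCACG with 9 bases of any kind between them, is the site bound by ATF6 with NF-Y in promoters of ER chaperones. It was searched on both strands in the RefSeq promoter windows of GRCm38.p6, from 250 bases before to 50 after each start. The motif was in 39 of 32851 windows (0.119%) and in 8 of the 25 ER folding genes that had a window. It is shown here for the genes that were higher in OLE members, as 30 bases of the gene's strand with the 19 bases of the match in capitals:
Calr, chr8:84847069-84847098, minus strand: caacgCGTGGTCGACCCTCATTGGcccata
Canx, chr11:50325794-50325823, minus strand: attgaCCAATCACCACGCTCCACGaagaat
Dnajc3, chr14:118937822-118937851, plus strand: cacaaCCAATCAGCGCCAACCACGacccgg
Hsp90b1, chr10:86705527-86705556, minus strand: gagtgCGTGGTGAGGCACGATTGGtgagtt
Hsp90b1, chr10:86705632-86705661, minus strand: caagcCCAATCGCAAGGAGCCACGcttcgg
Hspa5, chr2:34772020-34772049, plus strand: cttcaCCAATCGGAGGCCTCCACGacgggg
Pdia6, chr12:17266486-17266515, plus strand: agagaCCAATGAAAGGCGGCCACGgcgtgg

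In Calr and in the nearer Hsp90b1 window the element is read on the opposite strand. The matches end 46 bases before the start in Hspa5, 79 in Pdia6, 86 in Dnajc3, 126 in Canx, 143 in Calr, and 88 and 193 in Hsp90b1. Of the 8 ER folding genes that were higher in OLE members, 6 held the motif, and of the 6 with a window that were measured and not called higher, 0 did. Creld2 and Syvn1 hold it too but had under 100 UMIs. Outside the list, Adcy3 (0.24), Hnrnpa3 (0.01), Pan2 (-0.43) and Spats2l (-0.18) were the measured genes with the motif, and none was called. None of 19 cytosolic chaperone promoters held it. A match in a window is a description of sequence and not a measured binding site.

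Cytosolic chaperones fold newly made proteins outside the ER. Of 21 genes, 5 were higher and 0 lower, beside 7.79% of all genes. All 5 were among the 15 genes shorter than 20 kb, beside 18.9% of all genes that short. The median of the list was 0.28 in members and 0.35 in the other gated nuclei. Hspa8, the constitutive Hsp70, had 235 and 416 UMIs (0.95, 0.72 to 1.19). Hsp90ab1 had 292 and 430 (0.69, 0.47 to 0.91), and Hsp90aa1 131 and 182 (0.61, 0.27 to 0.94). Of the chaperonin subunits, Cct2 (0.79) and Cct7 (0.57) were called and Cct3, Cct4, Cct5, Cct8 and Tcp1 were not. No proteasome gene of 20 was called in either direction, with a median of 0.11.

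Respiratory chain genes of the nucleus were divided. Of 21, 9 were higher and 0 lower, with a median of 0.34 in members and 0.34 outside, beside 7.79% of all genes. Among genes with 500 UMIs or more the median of the list was -0.024. The 9 were subunits of complex I (Ndufa4, 1.01), of cytochrome c oxidase (Cox8a, 0.94, with Cox6a1, Cox6c and Cox7c) and of ATP synthase (Atp5j, 0.99, Atp5b, 0.70, Atp5g3 and Atp5a1). The larger genes Ndufs1 (-0.23), Sdha (0.18), Uqcrc2 (0.04) and Atp5c1 (0.04) were not called, and all 9 called genes were among the 16 shorter than 20 kb. None of the 10 mitochondrially encoded genes reached 0.5, yet their ratios were alike, from 0.06 for mt-Nd3 to 0.34 for mt-Cytb, with a median of 0.29 against 0.03 in the other gated nuclei. The mitochondrial share of UMIs per nucleus, given above, was also higher in the OLE library.

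Cytosolic ribosomal protein genes had the highest median of the lists. Of 18 measured, 16 were higher and 0 lower, beside 7.79% of all genes. Their median was 0.90 in members and 0.65 outside, where 13 were higher. Rps19 had 40 and 77 UMIs (1.07, 0.51 to 1.66). Rpl5 (-0.06) and Rps23 (0.49) were the 2 that were not called. These genes are short, have many processed copies in the genome and give few UMIs in nuclei, so that reads could be split between copies.

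**Figure D4:**
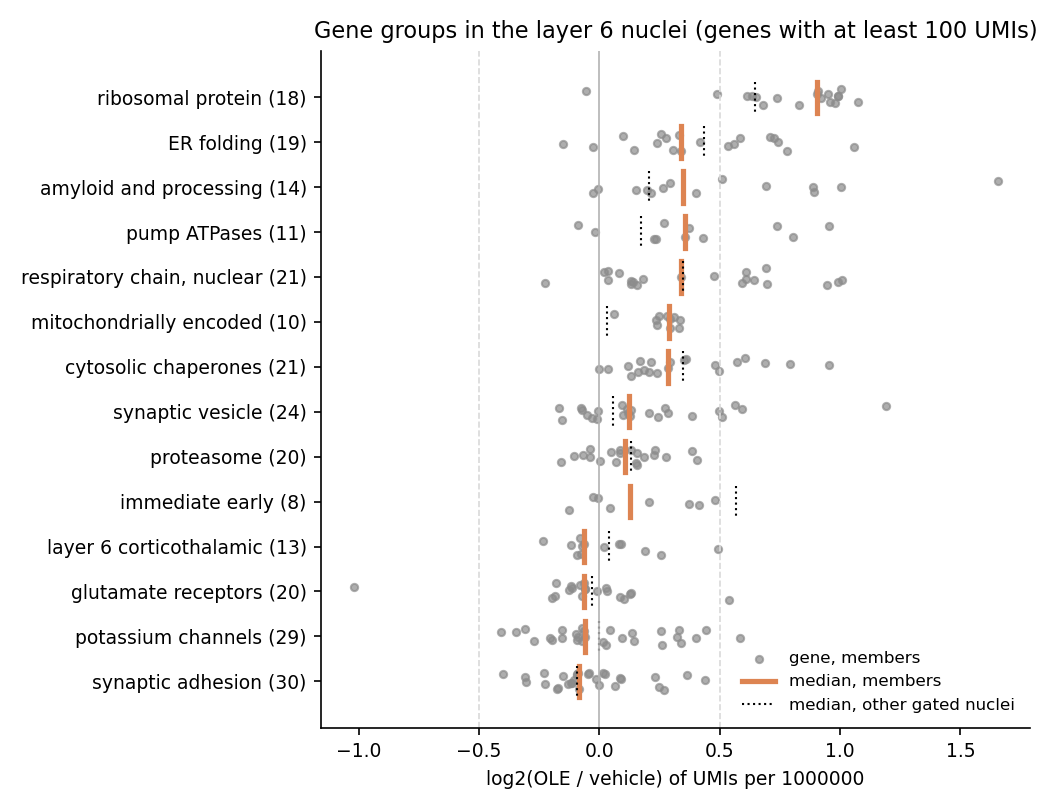
Log2 ratio of CPM, OLE over vehicle, for genes with at least 100 UMIs in members, by list (number of genes in brackets); grey points are genes, orange bars the median in members, dotted bars the median of the same genes in the other gated nuclei, and dashed lines mark -0.5 and 0.5. Ribosomal protein genes lie highest (median 0.90), synaptic adhesion genes lowest (-0.09), and the median of immediate early genes is 0.13 in members and 0.57 in the other nuclei.

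Of 14 genes of the amyloid precursor and its processing, 6 were higher and 0 lower, with a median of 0.35, beside 7.79% of all genes. In the other gated nuclei 5 of the 14 were higher, with a median of 0.20. App had 1992 and 2186 UMIs (0.26, 0.18 to 0.35), a count that may include reads of a transgene. The precursor's relatives Aplp1 (390 and 576 UMIs, 0.69) and Aplp2 (0.51) were higher. Itm2b, an inhibitor of amyloid precursor cleavage, had 351 and 643 UMIs (1.00, 0.81 to 1.20), and Itm2c 397 and 671 (0.89, 0.71 to 1.07). The secretase genes Bace1 (0.40), Adam10 (-0.01), Aph1a (0.29) and Ncstn (-0.03) were not called. Cst3, the protease inhibitor cystatin C, was higher (181 and 307 UMIs, 0.89). Apoe, described next, was the other called gene of this list. The called genes included 4 of the 6 that were shorter than 20 kb.

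Apoe, the lipid carrier made mainly by astrocytes and microglia, had 161 UMIs in vehicle members and 463 in OLE members, a log2 ratio of 1.65 (1.39 to 1.92). In the OLE library 245 of the 463 UMIs came from 1 nucleus, which had 36232 UMIs in all, 39 of Aqp4, 19 of Gfap and 168 of Slc1a2, and a marker score of 2.16. Without the highest nucleus of each library the ratio was 0.75. In the other gated nuclei it was 1.19, with 47.7 and 109 CPM.

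Ion pumps were higher in part. Of 11 pump ATPase genes, 3 were higher and 0 lower, beside 7.79% of all genes. Their median was 0.35 in members and 0.17 outside, where 3 were higher as well. Atp1b1, the beta subunit of the sodium pump, was among those called in members, with 864 and 1316 UMIs (0.74, 0.61 to 0.86). Atp2a2, the ER calcium pump SERCA2, had 979 and 1207 UMIs, a ratio of 0.43 (0.31 to 0.56), below the cutoff but with an interval above 0.

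Of 24 synaptic vesicle and release genes, 4 were higher and 0 lower, beside 7.79% of all genes. All 4 were among the 7 genes shorter than 20 kb, beside 18.9% of all genes that short. These were Rab3a, a vesicle GTPase (58 and 121 UMIs, 1.19, 0.73 to 1.67), Sv2a (0.59), synaptophysin, Syp (0.56), and the vesicular glutamate transporter Slc17a7 (844 and 1096 UMIs, 0.51, 0.38 to 0.64). Slc17a7 was part of the gate. The long active zone genes Rims1 (-0.08), Rims2 (-0.17) and Pclo (-0.15) leaned the other way. Of 30 synaptic adhesion genes, of which 29 were 20 kb or longer, none was called in either direction, and the median was -0.09 in members and -0.10 outside. Cntn5 (-0.40) and Ptprt (-0.31) had the lowest values, and Lrrtm4 (0.25) stood above 0 with 8249 and 8959 UMIs.

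Of 20 glutamate receptor subunits, Grin3a was higher (0.54) and Grik1 lower, and of 29 potassium channel subunits Kcna2 alone was called (0.58, 0.20 to 0.97). Over all genes, 7.79% were higher and 1.00% lower. For Grik1, 52 of the 140 vehicle UMIs came from 1 nucleus, and without the highest nuclei the ratio went from -1.02 to -0.53.

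None of 13 corticothalamic genes outside the rule was called, and their median was -0.06. Some genes of other layers were called. Of 4 near-projecting and layer 5 genes, Parm1 (310 and 480 UMIs, 0.76) and Etv1 (87 and 127, 0.68) were higher, beside 7.79% of all genes. Parm1 was under the cutoff in 4 of 19 alternatives and Etv1 in 3. Of 2 Car3 and claustral genes, Nr4a2 was higher (136 and 255, 1.04). Of 7 upper-layer genes, 0 were higher and 1 was lower, beside 1.00% of all genes lower. Among the genes of the rule, which members were chosen on, Foxp2 had -0.28 (-0.35 to -0.20), Syt6 -0.27 (-0.51 to -0.04), Col5a1 0.46 (0.27 to 0.65), Garnl3 -0.02 and Htr1f 0.04. Of the 8 immediate early genes, which follow neuronal activity, none was called in members, with a median of 0.13, whereas 5 were higher in the other gated nuclei with a median of 0.57. Junb had 88 and 79 UMIs in members, a ratio of -0.02 (-0.48 to 0.43), against 0.98 in the other nuclei.

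Among genes with at least 200 UMIs, the 10 with the highest OLE to vehicle ratio in members were Apoe, Shisa6, Ubb, Pgrmc1, Lpar1, Cck, Rpl9-ps6, Adarb2, Tubb2a and Fth1. Shisa6, an AMPA receptor auxiliary protein (ENSMUSG00000053930, chromosome 11, 66211725 to 66525964), had 92 and 211 UMIs in 37 and 49 nuclei, a ratio of 1.33 (0.97 to 1.70), and exceeded the 0.58 of the other gated nuclei by 0.74 (0.38 to 1.12). Ubb, a ubiquitin precursor, had 125 and 272 UMIs in 84 and 141 nuclei (1.252, 0.94 to 1.57). Pgrmc1, a heme-binding membrane protein, had 153 and 327 (1.23, 0.94 to 1.51), and the ferritin heavy chain Fth1 167 and 319 (1.06, 0.79 to 1.34). Those 3 were about as high in the other gated nuclei, at 1.027, 0.996 and 0.93.

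Cck, the neuropeptide cholecystokinin, had 109 and 222 UMIs (1.16) and 1.11 in the other nuclei, and Tubb2a, a beta-tubulin, had 1.10 and 0.95. Rpl9-ps6, a ribosomal pseudogene, had 1.15, and its count could include reads of its parent gene, which was not tested. Adarb2, otherwise a marker of caudal ganglionic interneurons, had 107 and 215 UMIs, of which 71 were in 1 OLE nucleus, and its ratio of 1.14 was 0.82 without the highest nuclei. Lpar1 had 65 and 136 UMIs in 29 and 58 nuclei (1.20, 0.76 to 1.65). Of these, 56 and 109 UMIs were in the Cobll1 Thsd7b overlap, where the ratio was 0.34 (-0.13 to 0.84). The other members had 9 and 27 UMIs, a ratio of 1.91 (0.78 to 3.18).

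The 10 lowest were Rtl4, Grik1, Fam19a1, Blnk, Gm46218, Mtpap, Fam19a2, Rorb, Gtf2f2 and Nt5dc1. Fam19a1, a secreted chemokine-like protein, had 842 and 384 UMIs (-1.002, -1.18 to -0.83), of which 299 and 118 were in 1 nucleus of each library, and -0.90 without those. With Htr1f left out of the marker score its ratio was -0.184, and at a score threshold 0.25 higher it was also short of the cutoff. Its relative Fam19a2 had 633 and 335 UMIs (-0.79, -0.98 to -0.59), with 132 in 1 vehicle nucleus. Both were several times more abundant in the other gated nuclei, at 1456 and 1397 CPM for Fam19a1, where their ratios were -0.06 and -0.19. Rtl4, a retrotransposon-derived gene, was likewise uneven, with 58 of its 164 vehicle UMIs in 1 nucleus (-1.39, and -1.06 without the highest nuclei), and its ratio was -0.132 with Foxp2 left out of the score and -0.28 with Htr1f left out.

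Apart from Grik1, described above, the remaining genes had no more than 29 UMIs in any nucleus. Mtpap, the mitochondrial poly(A) polymerase, had 135 UMIs in 88 vehicle nuclei and 71 in 58 OLE nuclei (-0.80, -1.23 to -0.37), and Gtf2f2, a subunit of the general transcription factor TFIIF, had 156 in 86 and 86 in 56 (-0.73, -1.13 to -0.34). Nt5dc1 had 184 and 102 UMIs (-0.72), Gm46218 135 and 68 (-0.86), and the B cell adaptor Blnk 138 and 68 (-0.89). In the other gated nuclei Mtpap stood at 0.09, Gtf2f2 at 0.05 and Nt5dc1 at -0.04. Rorb had 165 and 88 UMIs in 34 and 35 nuclei, so about as many nuclei carried fewer of them (-0.78). The Rorb ratio was -0.016 with Syt6 left out of the score, -0.07 at a threshold of 0.75, and under the cutoff in 5 alternatives in all.

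**Figure D5:**
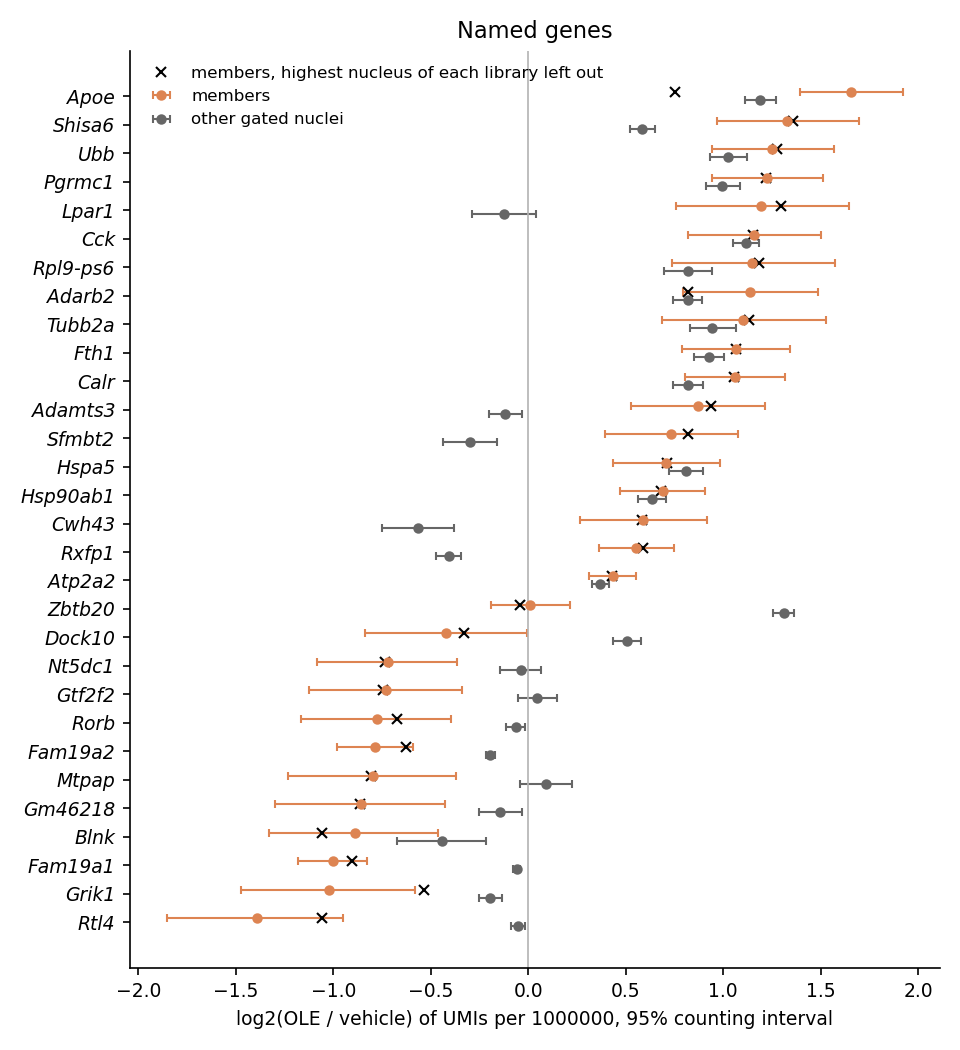
Log2 ratio of CPM, OLE over vehicle, with 95% counting intervals, for the named genes in members (orange) and the other gated nuclei (grey); crosses give members without the highest nucleus of each library. For Apoe the cross (0.75) lies far below the ratio with all nuclei (1.65), and for Zbtb20 members stay near 0 (0.01) while the other nuclei reach 1.31.

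The genes whose ratio in members exceeded that in the other gated nuclei most were Lpar1 (by 1.32, 0.85 to 1.80), Cwh43 (1.15, 0.78 to 1.53), Sfmbt2 (1.03), Adamts3 (0.99) and Rxfp1 (0.96, 0.76 to 1.17). Rxfp1, the relaxin receptor, had 103 and 152 CPM in members, a ratio of 0.55 (0.36 to 0.75), and -0.41 outside. It was under the cutoff in 10 of 19 alternatives, down to 0.111 without the Cobll1 Thsd7b overlap, and Cwh43 was in 9, down to 0.084 with Col5a1 left out of the score. Without the members in the Cobll1 Thsd7b overlap, Sfmbt2, a polycomb-related gene, went from 0.73 to -0.78 and Adamts3, a procollagen peptidase, from 0.87 to -0.19. Of the Adamts3 UMIs, 75 of 115 in the vehicle library and 164 of 192 in the OLE library were in the overlap. The 5 at the other end were Rtl4 (-1.34), Zbtb20 (-1.30, -1.51 to -1.09), Fam19a1 (-0.94), Dock10 (-0.93) and Mtpap (-0.89). Zbtb20, a zinc finger repressor of hippocampal neurons and astrocytes, had 428 and 394 UMIs in members, or 113 and 114 CPM, and 101 and 250 CPM in the other nuclei. Those other nuclei also had more RNA of the listed hippocampal genes in the OLE library, except for Mpped1 (137 and 135 CPM). For example, Prox1 had 2.17 and 5.79 CPM there, Fibcd1 1.63 and 5.34, and Wfs1 15.65 and 27.11. The part of this in the Zbtb20 difference was not tested. For Dock10, a guanine nucleotide exchange factor, members had 123 and 84 UMIs (-0.42, -0.84 to -0.01) and the other nuclei 0.51.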

How the data were processed

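Nuclei of frozen entorhinal cortex from 5 pooled mice per condition were processed with 10x Genomics 3′ chemistry. Per the labels, the authors used Cell Ranger 3.0.1 and mm10 (the header of the deposited matrices names 3.0.2) and Seurat 4.0.4. The study states a pre-mRNA reference, so intronic reads count and long genes gather more UMIs. The deposited values are filtered UMI counts, not normalized, for 31053 genes. The study states that doublets were removed during the Seurat steps, but the caller is not given in the sources used here, and the matrices may precede that step.

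Counts were read with scipy 1.17.1 and scanpy 1.11.5 (Scrublet, expected doublets 5%), under Python 3.11.15. Scores used log1p of counts per 10000. UMIs were summed over members per library, scaled to 1000000, and compared as log2 ratios with exact binomial intervals at 95%. Levels had exact Poisson intervals, and intervals of differences combined those of their terms. UMIs collapse PCR copies, and intervals cover counting error only. With 1 library per condition no test was made. Gene lengths came from GENCODE vM21 (GRCm38, 30934 of 31053 identifiers matched) and promoters from RefSeq (GRCm38.p6). Symbols held by more than 1 identifier were left out of lists. The ratio calculation was checked on simulated counts.

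Myelin-rich barcodes had at least 0.5% of UMIs from myelin genes and no UMI of Slc17a7, Gad1 or Gad2. Named genes were the 5 rule markers, genes of the lists reported, the 20 highest and 10 lowest between members and other gated nuclei, the 10 highest and 10 lowest OLE to vehicle ratios at 200 UMIs or more, the 5 genes each way that differed most between members and other gated nuclei with an interval excluding 0, and Calr, Atp2a2, Hsp90ab1 and Hspa5, which the study names for neurons. Cobll1, Lpar1 and the genes set beside single nuclei or the overlap were also named after their values were seen. The members and lists were chosen with earlier results of these data known. Some genes that the rule names are not reported here.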

Additional observations from a re-analysis of the deposited data

Results flagged for a closer look

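Of the genes that differed most between members and the other gated nuclei, 5 had OLE to vehicle ratios of opposite sign with both counting intervals leaving out 0. Lpar1 (1.20 and -0.12) and Mtpap (-0.80 and 0.09) had opposite signs as well, but their intervals outside the set held 0. The difference was not tested because each condition was 1 library. Sfmbt2 had 0.73 in members and -0.30 outside. For Rxfp1 the values were 0.55 and -0.41. Cwh43 had 139 and 191 UMIs in members, with 0.59 in members and -0.56 outside. Adamts3 stood at 0.87 and -0.12. Dock10, which was under the cutoff of 0.5 in members, had -0.42 (-0.84 to -0.008) in members and 0.51 outside. Other named genes went opposite ways too. Foxp2 had 796 and 657 CPM in members and 34.6 and 38.7 outside, but it is a gene of the rule, so the cutoff shaped both levels. Cobll1 had 73.3 and 103 CPM in members and 41.2 and 33.0 outside. Rxfp1 fell under the cutoff in 10 of 19 alternatives and Cwh43 in 9. The share of members that also met the Cobll1 Thsd7b score was 19.3% in the vehicle library and 29.2% in the OLE library, and its part in these differences was measured only by leaving those members out.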

How the results depend on the processing

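No paired analysis was possible because each condition was 1 library and the labels give no replicate numbers. For the 8 results of the design, 131 values under the alternatives stayed within the limits of the reported value and 17 did not (its counting interval, for list medians that of the middle gene, for gene counts 1.5 times, and for the corticothalamic median 0.5). The vehicle and OLE shares of members were 12.4% and 11.6% at a score threshold of 0.75, 7.98% and 7.04% at a threshold 0.25 above the rule, 11.9% and 10.8% without Syt6 in the score, and 7.84% and 6.75% without members that met the Cobll1 Thsd7b score, an alternative chosen after seeing the data. Genes higher in OLE members numbered 196 of 3556 when nuclei were thinned to 6000 UMIs, 1774 of 11874 at 20 UMIs or more and 58 of 2442 at 500 or more. Genes lower numbered 130 after centring on the median ratio, and 550 and 5 at those minimums. Fewer genes were tested at 500 UMIs, and thinning lowered the counts of every gene. The ER folding median was 0.66 at 500 UMIs or more. That of the respiratory chain went from 0.34 to -0.024 there, which counted as within the limits because the interval of its middle gene held that value. The synaptic adhesion median was -0.035 without Garnl3 in the score and -0.16 after centring. Of 78 named or listed genes that were called, 48 stayed past 0.5 under all 19 alternatives run on them. Sfmbt2 turned negative at a threshold of 0.75 (-0.045), without Syt6 (-0.05), without Col5a1 (-0.04) and without the overlap (-0.78), Adamts3 without the overlap (-0.19), and Etv1 (0.68) at 0.75 (-0.008) and without Syt6 (-0.037), and the cause was not tested. Rxfp1 and Cwh43 were under 0.5 in 10 and 9 alternatives, Slc17a7 in 11, Aplp2 in 7 and Dnajc3 in 6.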

Other observations

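Outside the Cobll1 Thsd7b overlap, some genes that are not in the lists of folding or metabolism differed between the libraries, and they were picked after their values were seen. Shisa6 had 33 UMIs in vehicle and 120 in OLE members there, a log2 ratio of 2.18 (1.62 to 2.79), and 0.01 (-0.48 to 0.51) within the overlap. Rmst, a long non-coding RNA of neuronal differentiation, had 179 and 66 UMIs outside the overlap (-1.12, -1.55 to -0.70) and 221 and 434 within it (0.36, 0.12 to 0.60). Svil, a layer 6b gene, had 4 and 41 UMIs outside (3.68, 2.21 to 5.62) and 10 and 15 within. Calr was higher in both parts of the members, at 1.11 (0.82 to 1.40) outside and 0.85 (0.26 to 1.47) within, and so was Hspa5, at 0.66 (0.35 to 0.96) and 1.01 (0.33 to 1.74).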
